A study of Mus musculus with 12 samples.

Results

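The comparison described here set the livers of *Ahr* HKO mice kept on the control diet against the livers of WT mice fed ethanol. Neither group was matched to the other for genotype or for diet, and the question addressed was which transcripts tell hepatocyte loss of *Ahr* apart from ethanol feeding of mice with intact *Ahr*. All genes of the deposited table were members. Of 24532 genes, 14038 had enough reads to be tested, and the 6 libraries used belong to a series of 12 libraries in 4 groups of 3 livers.

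*Ahr* HKO mice carried floxed *Ahr* alleles (*Ahr* fl/fl) together with *Alb-Cre*, in which the albumin promoter drives the recombinase in hepatocytes. The WT animals were littermates with the same floxed alleles and no *Cre*. All were male C57BL/6 mice aged 10 to 12 weeks at the start. *Ahr* HKO mice of this comparison received an isocaloric control liquid diet for 5 weeks, and WT mice received the Lieber-DeCarli diet with 5% ethanol by volume, or 36% of calories, for the same 5 weeks. The remaining groups, WT on the control diet and *Ahr* HKO on the ethanol diet, are given beside the main values of some genes. Non-parenchymal cells of the *Ahr* HKO liver keep their *Ahr*. In bulk liver RNA, fewer cells of a type and less RNA per cell cannot be told apart.

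AhR is a ligand-activated transcription factor of the bHLH-PAS family. After binding a ligand in the cytoplasm it enters the nucleus, pairs with ARNT and binds xenobiotic response elements near genes such as *Cyp1a1*, *Cyp1a2* and *Nqo1*. In hepatocytes it shares many targets with other sensors of foreign chemicals, the nuclear receptors CAR and PXR and the oxidative stress factor NRF2, whereas circulating growth hormone and IL-6 set the sex-biased and the acute phase parts of hepatocyte expression.

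Reads on genes ranged from 52188790 to 61659352 in the 6 libraries, and no library duplicated another. Levels are given as CPM, a gene's reads relative to the library total scaled for composition. Pearson correlations of log2 CPM were 0.969 to 0.978 among *Ahr* HKO control-diet livers, 0.971 to 0.974 among WT ethanol-diet livers and 0.932 to 0.941 between the groups. PC1 carried 54.9% of the variance and separated the groups. PC2, with 15.2%, set *Ahr* HKO liver 3 apart from *Ahr* HKO livers 1 and 2. Over all 12 libraries the control-diet *Ahr* HKO livers took one end of PC1, whereas the *Ahr* HKO ethanol-diet livers lay near the WT ethanol-diet livers.

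**Figure D1:**
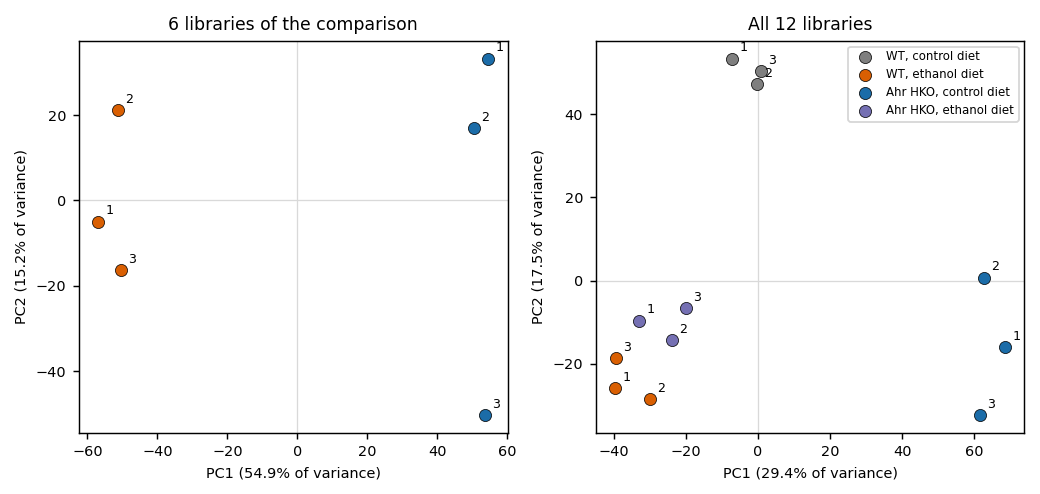
PCA of log2 CPM of 14038 genes in the 6 libraries of the comparison (left) and in all 12 (right). Each point is 1 liver with its replicate number, and axes give the share of variance. On the left PC1 (54.9%) parts the groups, and on the right the 3 control-diet *Ahr* HKO livers lie apart from the other 9.

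Differentially expressed genes (DEGs) were called by edgeR at an adjusted *P* value under 0.05 with a fold change (FC) above 1.5. Of the tested genes 19.0% were DEGs, that is 2670 genes. In total 1287 genes (9.17%) were higher in *Ahr* HKO on the control diet, and 1383 (9.85%) were higher in WT on ethanol. Without the FC limit 3508 genes (25.0%) passed. The 3 livers of each group did not overlap for 6278 genes (44.7%), of which 2657 were DEGs. Changes above 4-fold counted 402 genes, 184 of them higher in *Ahr* HKO and 218 higher in WT on ethanol. Of all DEGs 48.2% were higher in *Ahr* HKO by edgeR. With limma the share was 45.8% (829 of 1812) on quantile-normalized log2(FPKM + 1) and 28.9% (580 of 2004) on the same values with no quantile step. Genotype and diet both differ between these groups, and their parts in a DEG cannot be told apart here. For that reason the values in WT on the control diet are given beside many of the genes, but not beside all.

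**Figure D2:**
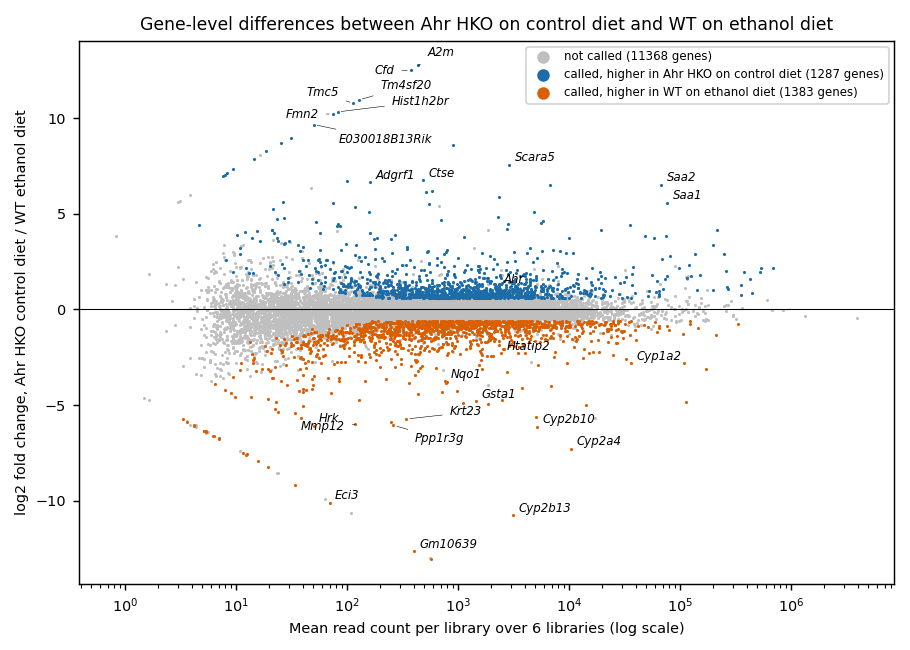
log2 FC of each tested gene (*Ahr* HKO on control diet over WT on ethanol, vertical) against its mean read count over 6 libraries (horizontal, log scale). Colours mark 1287 DEGs higher in *Ahr* HKO on control diet and 1383 higher in WT on ethanol. The genes labelled are among those with the largest changes or are discussed in the text, and the slanted rows at the edges are genes with no reads in 1 group, whose fitted FC has no fixed size.

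The targeted gene gave a first look at the labels. *Ahr* stood at 65.5, 41.3 and 63.3 CPM in livers of control-diet *Ahr* HKO mice, as opposed to 30.5, 20.8 and 23.4 CPM in WT on ethanol. Thus every control-diet *Ahr* HKO liver was above every WT liver on ethanol (log2 FC = 1.19, SE 0.22, adjusted *P* value = 0.00962). The floxed segment is a single exon, the table counts reads over the whole gene, and the count therefore checks nothing about the deletion. WT livers on the control diet held 20.1, 16.6 and 18.3 CPM and *Ahr* HKO livers on ethanol 41.8, 32.1 and 24.7 CPM. Of 8 tested members of the AhR complex list (AhR, ARNT, chaperones and partners), *Ahr* was the single DEG (12.5%, against 19.0% of all tested genes). The list median was 0.26 against -0.01 over all tested genes.

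AhR target genes were mostly lower in *Ahr* HKO on the control diet. Of 17 tested members, 9 were DEGs with lower expression in *Ahr* HKO, 1 (*Xdh*, xanthine dehydrogenase, singled out after its value was seen) was higher, and 7 were not called. No target was called higher without *Ahr* HKO liver 1, *Ahr* HKO liver 3, WT ethanol liver 1 or WT ethanol liver 3. The share of DEGs was 58.8%, against 19.0% of all tested genes, and the median log2 FC was -0.93. *Cyp1a2*, a major hepatic oxidase of planar amines and caffeine, had 90.7, 112 and 258 CPM in *Ahr* HKO control-diet livers against 1212, 1061 and 992 CPM in WT ethanol-diet livers. All control-diet *Ahr* HKO livers were several times below all WT livers on ethanol (log2 FC = -2.83, SE 0.40, adjusted *P* value = 0.00448). WT control-diet livers lay between, at 617, 398 and 456 CPM. *Nqo1*, a quinone reductase regulated by both AhR and NRF2, had 1.698, 1.25 and 2.44 CPM in *Ahr* HKO and 26.6, 28.2 and 18.2 CPM in WT on ethanol (log2 FC = -3.77, SE 0.29, adjusted *P* value = 0.000915). In contrast to *Cyp1a2*, its WT control-diet livers (3.405, 1.78 and 2.72 CPM) were near the *Ahr* HKO livers.

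*Htatip2* (also TIP30, an oxidoreductase) behaved like *Nqo1*. It read 14.03, 14.9 and 14.6 CPM in *Ahr* HKO, 96.6, 57.1 and 58.3 CPM in WT on ethanol and 21.5, 16.3 and 16.5 CPM in WT on control diet, with a narrow spread in both control-diet groups (log2 FC = -2.29, SE 0.22, adjusted *P* value = 0.00143). *Gsta1*, a glutathione transferase, was at 1.44, 1.64 and 2.26 CPM in *Ahr* HKO and 77.3, 57.5 and 13.1 CPM in WT on ethanol. WT liver 3 on ethanol was the lowest of its group and still above all *Ahr* HKO livers (log2 FC = -4.799, SE 0.65, adjusted *P* value = 0.00401). *Ddc*, the decarboxylase of aromatic amino acids, resembled *Cyp1a2*, with 11.5, 14.2 and 6.31 CPM in *Ahr* HKO, 74.95, 40.2 and 55.9 CPM in WT on ethanol and 38.1, 26.1 and 27.4 CPM in WT on control diet (log2 FC = -2.41, SE 0.34, adjusted *P* value = 0.00437).

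*Cyp1a1*, the usual reporter of AhR activity, was close to the lower end of what could be measured. Its values were 0.898, 0.444 and 0.827 CPM in *Ahr* HKO and 1.36, 1.02 and 1.66 CPM in WT on ethanol. The groups did not overlap, but the gene was not a DEG (log2 FC = -0.89, SE 0.38, adjusted *P* value = 0.127). Against WT on control diet (0.349, 0.214 and 0.204 CPM), *Cyp1a1* was higher both in *Ahr* HKO on the control diet (log2 FC = 1.495, adjusted *P* value = 0.0458) and in WT on ethanol (log2 FC = 2.39, adjusted *P* value = 0.0155). These side values share their WT control livers. *Ahr* HKO livers on ethanol overlapped WT on ethanol for *Cyp1a1* (1.035, 1.235 and 1.67 CPM) and *Ddc* (69.99, 35.9 and 49.6 CPM). They lay below every WT ethanol liver for *Cyp1a2* (629, 684 and 658 CPM) and *Nqo1* (11.2, 11.3 and 6.88 CPM). The same held for *Htatip2* (29.6, 25.2 and 21.0 CPM) and *Gsta1* (5.12, 8.41 and 3.97 CPM).

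**Figure D3:**
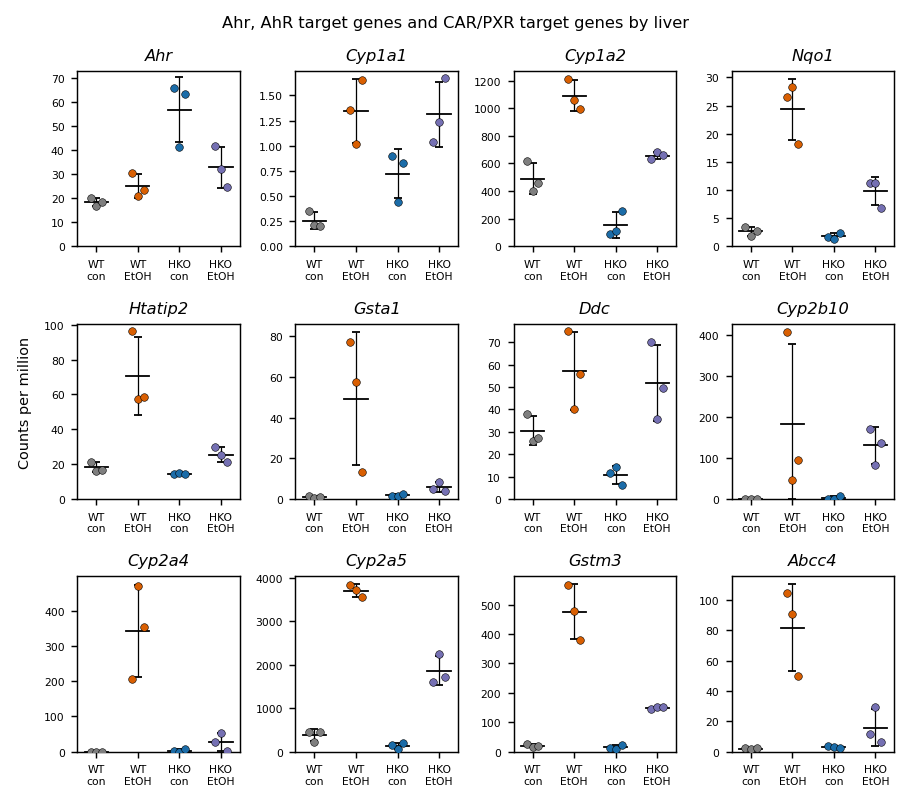
CPM of *Ahr*, AhR targets and CAR or PXR targets in each liver (points) of the 4 groups, with the group mean (line) and SD (bar, drawn to 0 at most), n = 3. For *Cyp1a2*, *Nqo1*, *Htatip2*, *Gsta1*, *Ddc*, *Cyp2a5*, *Gstm3* and *Abcc4* all 3 control-diet *Ahr* HKO livers lie below all 3 WT ethanol livers, whereas *Ahr* is the reverse.

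Promoter sequence was examined for the AhR core motif, GCGTG, searched on both strands (CACGC on the other) in the 250 bases before each RefSeq start (GRCm38.p6). Of the 10 called AhR targets 8 had such a window, and 2 of these held the motif in at least 1 window. Among the 7 tested targets that were not called, 6 had a window and 5 held the motif. Over all 32841 windows the motif stood in 28.2%, and 47.9% of the tested genes with a window had it in at least 1. The windows that hold the motif in the called pair, *Htatip2* and *Ddc*, are shown with that of *Cyp1a1*. They place the motif beside the expression values, with its letters in capitals. A match describes letters only, and binding was not measured.
Htatip2: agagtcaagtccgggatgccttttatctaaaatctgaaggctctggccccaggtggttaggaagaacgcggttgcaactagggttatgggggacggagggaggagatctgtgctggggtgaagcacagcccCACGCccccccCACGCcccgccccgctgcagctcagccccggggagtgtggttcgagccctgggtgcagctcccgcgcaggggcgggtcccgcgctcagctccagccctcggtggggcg
Ddc: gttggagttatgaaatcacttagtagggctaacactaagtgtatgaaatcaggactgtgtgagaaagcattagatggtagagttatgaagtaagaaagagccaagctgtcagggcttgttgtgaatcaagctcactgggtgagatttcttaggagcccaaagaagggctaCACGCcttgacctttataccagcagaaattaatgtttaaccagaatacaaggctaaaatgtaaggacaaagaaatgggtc
Cyp1a1: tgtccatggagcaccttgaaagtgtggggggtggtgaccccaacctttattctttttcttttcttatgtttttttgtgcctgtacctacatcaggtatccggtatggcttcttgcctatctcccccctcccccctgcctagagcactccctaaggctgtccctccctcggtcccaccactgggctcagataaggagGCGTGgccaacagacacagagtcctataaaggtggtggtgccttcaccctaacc
The *Htatip2* window lies at chr7:49758856-49759105 on the plus strand, with 2 motifs on the opposite strand whose first bases are 119 and 108 bases before the start. The *Ddc* window, at chr11:11898145-11898394 on the minus strand, holds 1 motif, also on the strand opposite to the gene, at 80 bases before its start, and the *Cyp1a1* window, at chr9:57697363-57697612 on the plus strand, holds 1 at 54 bases. The other window of *Htatip2* (chr7:49759262-49759511) and that of *Ddc* (chr11:11890409-11890658) held no motif. *Nqo1*, *Cyp1a2* and *Gsta1*, which had larger differences than *Htatip2*, showed no GCGTG on either strand in their windows.

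Genes of drug metabolism beyond the AhR list had the largest shares of lower expression in *Ahr* HKO on the control diet. In the list of CAR and PXR targets, the nuclear receptors that induce *Cyp2b* and *Cyp3a* enzymes, 22 of 28 members were DEGs and all 22 were lower in *Ahr* HKO (median log2 FC -1.72). Glutathione transferases were lower for 15 of 21, with none higher (median -1.15). NRF2 targets were lower for 12 of 20 and higher for 1 (median -0.93), UDP-glucuronosyltransferases lower for 10 of 18 and higher for 1 (median -0.90), and hepatocyte transporters lower for 13 of 19 and higher for 1 (median -0.78). Over all tested genes 9.85% were lower, and the lists share members such as *Abcc4*, *Gsta1* and *Nqo1*.

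*Cyp2a5*, the coumarin hydroxylase, had 144, 55.7 and 192 CPM in *Ahr* HKO on control diet and 3846, 3721 and 3562 CPM in WT on ethanol (log2 FC = -4.83, SE 0.47, adjusted *P* value = 0.00155). The spread within WT on ethanol was small beside the distance between groups. *Gstm3* had 12.4, 10.2 and 22.7 CPM in *Ahr* HKO, 567, 480 and 380.5 CPM in WT on ethanol and 25.4, 15.7 and 18.2 CPM in WT on control diet (log2 FC = -4.98, SE 0.36, adjusted *P* value = 0.000777). WT control-diet livers therefore sat with the *Ahr* HKO livers. *Abcc4*, an efflux pump of the sinusoidal membrane, repeated this, with 3.59, 2.97 and 2.52, 105, 90.5 and 49.6 and 2.03, 1.64 and 2.29 CPM in the same order of groups (log2 FC = -4.75, SE 0.32, adjusted *P* value = 0.000777).

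The carbonyl reductase *Cbr3* had the lowest *P* value of the NRF2 list. Its values were 1.32, 1.07 and 1.05 CPM in *Ahr* HKO and 20.4, 23.5 and 24.9 CPM in WT on ethanol (log2 FC = -4.31, SE 0.17, adjusted *P* value = 0.000242). *Ephx1*, microsomal epoxide hydrolase, was at 167, 149.8 and 156 CPM and 1027, 920.4 and 895 CPM, respectively (log2 FC = -2.59, SE 0.14, adjusted *P* value = 0.000500). Both had WT control-diet values close to *Ahr* HKO, at 0.633, 0.768 and 0.9198 CPM for *Cbr3* and 249, 239 and 169.8 CPM for *Ephx1*. *Slc7a11*, the cystine carrier, had no read in any control-diet *Ahr* HKO liver and 0.566, 0.461 and 0.239 CPM in WT on ethanol. Its group mean was at least 7.88-fold lower when 3 reads per library are taken as the floor.

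Transporters and conjugating enzymes included genes for which WT on the control diet stood with WT on ethanol instead. *Abcg5* and *Abcg8* together form the sterol exporter of the canalicular membrane. *Abcg5* had 38.4, 32.5 and 46.3 CPM in *Ahr* HKO, 111, 110.4 and 116 CPM in WT on ethanol and 90.02, 77.9 and 77.3 CPM in WT on control diet (log2 FC = -1.52, SE 0.15, adjusted *P* value = 0.00143). *Abcg8* had 50.1, 35.1 and 43.2, 133, 139 and 154 and 165, 123 and 113 CPM (log2 FC = -1.73, SE 0.16, adjusted *P* value = 0.00123). Hence both exporter genes set *Ahr* HKO on the control diet apart from either WT group. They also set it apart from *Ahr* HKO on ethanol, at 79.8, 93.3 and 75.5 CPM for *Abcg5* and 102, 120 and 99.6 CPM for *Abcg8*. *Ugt2b37* went the opposite way to its family, with 41.7, 45.2 and 24.3 CPM in *Ahr* HKO against 1.74, 2.27 and 3.96 CPM in WT on ethanol and 3.78, 4.02 and 2.33 CPM in WT on control diet (log2 FC = 3.796, SE 0.37, adjusted *P* value = 0.00160). For *Ugt2b37* the *Ahr* HKO livers on ethanol had 2.13, 2.19 and 4.28 CPM.

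Among the 10 largest decreases in *Ahr* HKO were *Cyp2b13*, *Cyp2a4* and *Cyp2b10*. *Cyp2b13* had 0, 0 and 0.202 CPM in *Ahr* HKO and 144, 129 and 52.3 CPM in WT on ethanol, and no read in the WT control-diet livers. *Cyp2a4* had 0.229, 0.0683 and 6.39 CPM and 207, 471 and 354 CPM, respectively. *Cyp2b10*, the classical CAR target, had 0.817, 0.239 and 6.78 CPM and 408, 46.8 and 94.5 CPM (log2 FC = -6.15, SE 1.40, adjusted *P* value = 0.0198), and lost the call without *Ahr* HKO liver 1 (log2 FC -5.72, adjusted *P* value = 0.0621). The *Cyp2a*, *Cyp2b*, *Gstm* and *Ugt2b* families hold near-identical copies whose reads the counting may have split, and single members are therefore uncertain. Further genes of that set, *Gm10639*, *Eci3*, *Hrk*, *Ppp1r3g*, *Mmp12* and *Krt23*, had at most 0.375 CPM in any *Ahr* HKO liver. Of these, *Gm10639* and *Eci3* had no read there, and their group means were at least 258-fold and 44.96-fold lower. *Mmp12* was no DEG without *Ahr* HKO liver 1 (log2 FC -5.41, adjusted *P* value = 0.0608), *Ahr* HKO liver 3 (-5.51, 0.0574) or WT ethanol liver 2 (-5.07, 0.0509).

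Sex-biased genes of the liver, which depend on the pulse pattern of growth hormone, separated the groups in both directions. All mice were male. Of 32 tested male-biased genes 20 were DEGs and all were higher in *Ahr* HKO on the control diet (median log2 FC 1.62). Over all tested genes 9.17% were higher. The male-biased genes summed to 21426 to 43608 CPM in these *Ahr* HKO livers and 8097 to 12315 CPM in WT on ethanol. Both were below WT on the control diet, at 64420 to 76537 CPM, and *Ahr* HKO on ethanol had 26510 to 62191 CPM. Of 23 tested female-biased genes 11 were higher in WT on ethanol, against 9.85% of all tested genes, and 1 was higher in *Ahr* HKO (median -1.66). The male-biased count fell to 11 without *Ahr* HKO liver 1 or liver 2, and to 10 without WT ethanol liver 1 or liver 2, and the female-biased count of 11 fell to 7 without *Ahr* HKO liver 2.

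*Cyp4a12a*, the male fatty acid hydroxylase, had 283, 161 and 135 CPM in *Ahr* HKO on control diet, 6.61, 6.55 and 10.3 CPM in WT on ethanol, 298, 298 and 152 CPM in WT on control diet and 124, 256 and 256 CPM in *Ahr* HKO on ethanol. The WT ethanol livers alone were low (log2 FC = 4.62, SE 0.36, adjusted *P* value = 0.000915). Its near copy *Cyp4a12b* followed the same order (log2 FC = 5.89, SE 0.33, adjusted *P* value = 0.000500), from 116, 70.9 and 55.01 CPM in *Ahr* HKO to 1.26, 1.53 and 1.27 CPM in WT on ethanol. *C6*, a complement component, showed 383, 375 and 206 CPM and 13.6, 32.4 and 27.1 CPM (log2 FC = 3.72, SE 0.39, adjusted *P* value = 0.00202). *Serpina1e*, an antitrypsin paralog, had 7133, 8232 and 7952 CPM in *Ahr* HKO, 1467, 573 and 1074 CPM in WT on ethanol and 12880, 12710 and 12280 CPM in WT on control diet (log2 FC = 2.905, SE 0.35, adjusted *P* value = 0.00271). For *Serpina1e* the *Ahr* HKO livers were themselves below every WT control-diet liver. *Cyp2a22*, on the female-biased list, ran the other way at 2.47, 2.696 and 4.96 CPM in *Ahr* HKO and 231, 164 and 112 CPM in WT on ethanol (log2 FC = -5.65, SE 0.41, adjusted *P* value = 0.000777).

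Acute phase proteins, the plasma proteins that hepatocytes release in inflammation, were the list with the highest share of higher expression in *Ahr* HKO on the control diet. Of 26 members 20 were DEGs, none was lower, and the median log2 FC was 1.81, against 9.17% higher over all tested genes. Summed over the list, the *Ahr* HKO livers held 98819 to 129296 CPM and the WT ethanol livers 24314 to 32957 CPM. WT control-diet livers held 35339 to 64778 CPM and *Ahr* HKO ethanol livers 31688 to 38471 CPM. The control-diet *Ahr* HKO livers were thus above all others.

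*Saa1*, a serum amyloid, had 3065, 1772 and 3254 CPM in *Ahr* HKO and 82.3, 53.9 and 31.8 CPM in WT on ethanol (log2 FC = 5.59, SE 0.46, adjusted *P* value = 0.000996). WT control-diet livers split, at 31.5, 2571 and 2696 CPM. *Saa2* did the same, with 2774, 1299 and 3170 CPM in *Ahr* HKO, 38.5, 28.4 and 12.4 CPM in WT on ethanol and 7.62, 1839 and 2563 CPM in WT on control diet (log2 FC = 6.51, SE 0.58, adjusted *P* value = 0.00123), and both may share reads. WT control-diet liver 1 was far below livers 2 and 3 for both, so no level in that group is given as a mean. *Steap4*, a metalloreductase, did not share that split. It had 1887, 1211 and 2760 CPM in *Ahr* HKO, 156, 162 and 118 CPM in WT on ethanol, 97.8, 227 and 157 CPM in WT on control diet and 162, 166 and 289 CPM in *Ahr* HKO on ethanol, so that the control-diet *Ahr* HKO livers alone were high (log2 FC = 3.75, SE 0.34, adjusted *P* value = 0.00123). *Fgb*, the fibrinogen beta chain, was at 18780, 17280 and 23340 CPM and 4804, 3737 and 4855 CPM in the compared groups (log2 FC = 2.15, SE 0.24, adjusted *P* value = 0.00221). *A2m*, a protease inhibitor, had 30.8, 5.02 and 9.21 CPM in *Ahr* HKO and no read in WT on ethanol. Its group mean was at least 296-fold higher with 3 reads per library as the floor.

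IL-6 and STAT3 signaling genes, which act upstream of the acute phase response, were higher for 7 of 15 and lower for none (median 0.70). Their share of DEGs was 46.7%, against 19.0% of all tested genes. *Il6st*, the shared receptor chain gp130, had 307, 293 and 302 CPM in *Ahr* HKO and 101, 144 and 111 CPM in WT on ethanol (log2 FC = 1.34, SE 0.16, adjusted *P* value = 0.00257). *Socs3*, the feedback inhibitor that STAT3 induces, had 41.4, 65.1 and 90.04 CPM and 7.82, 14.3 and 9.47 CPM (log2 FC = 2.63, SE 0.34, adjusted *P* value = 0.00323). The IL-1 receptor *Il1r1* was highest in the control-diet *Ahr* HKO livers too, at 234, 252 and 297 CPM against 11.9, 30.1 and 52.95 CPM in WT on ethanol and 43.6, 50.8 and 30.03 CPM in WT on control diet (log2 FC = 3.04, SE 0.49, adjusted *P* value = 0.00668).

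Glucocorticoid-responsive genes were higher for 9 of 22 and lower for 2 (50% DEGs against 19.0% of all tested genes, median 0.31). The 9 fell to 5 without WT ethanol liver 3. *Mt2*, a metallothionein, had 1476, 1264 and 2150 CPM in *Ahr* HKO, 171, 79.8 and 83.8 CPM in WT on ethanol and 5.04, 30.7 and 219 CPM in WT on control diet (log2 FC = 3.87, SE 0.39, adjusted *P* value = 0.00172). Every control-diet *Ahr* HKO liver was above every liver of the other groups, and the WT control-diet livers spread widely. *Zbtb16*, a transcriptional repressor, was high in both *Ahr* HKO groups, with 77.6, 74.05 and 84.4 CPM on control diet and 106, 98.8 and 95.9 CPM on ethanol, against 27.6, 35.6 and 41.6 CPM in WT on ethanol and 15.3, 10.1 and 9.14 CPM in WT on control diet (log2 FC = 1.17, SE 0.16, adjusted *P* value = 0.00406). Zinc and iron importer *Slc39a14* was also higher, at 452, 466 and 703 CPM against 140.2, 147 and 134 CPM (log2 FC = 1.94, SE 0.20, adjusted *P* value = 0.00196).

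Of 22 genes of the unfolded protein response, by which the endoplasmic reticulum adjusts its folding capacity, 5 were higher in *Ahr* HKO and none lower (22.7% DEGs against 19.0% of all tested genes, median 0.88). That count was 2 without *Ahr* HKO liver 1, *Ahr* HKO liver 3 or WT ethanol liver 2, 12 without WT ethanol liver 3, 9 with DESeq2, 11 with all 12 libraries in 1 fit and 3 with limma on log2(FPKM + 1). *Xbp1*, the factor spliced by IRE1, had 371, 344 and 504 CPM in *Ahr* HKO and 104, 174 and 172 CPM in WT on ethanol (log2 FC = 1.44, SE 0.25, adjusted *P* value = 0.00801). *Syvn1*, a ubiquitin ligase of ER-associated degradation, had 619, 264 and 497 CPM and 60.7, 103 and 141 CPM (log2 FC = 2.18, SE 0.40, adjusted *P* value = 0.00961). The chaperone *Hspa5* (BiP) was at 2949, 1218 and 1921 CPM in *Ahr* HKO and 244, 721 and 827 CPM in WT on ethanol (log2 FC = 1.76, adjusted *P* value = 0.0399). Its groups did not overlap, but it lost the call without *Ahr* HKO liver 1 (1.39, 0.108), *Ahr* HKO liver 3 (1.80, 0.0767), or WT ethanol liver 1 (1.39, 0.0560), liver 2 (1.92, 0.0735) or liver 3 (2.07, 0.0583), the values being log2 FC and adjusted *P* value.

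**Figure D4:**
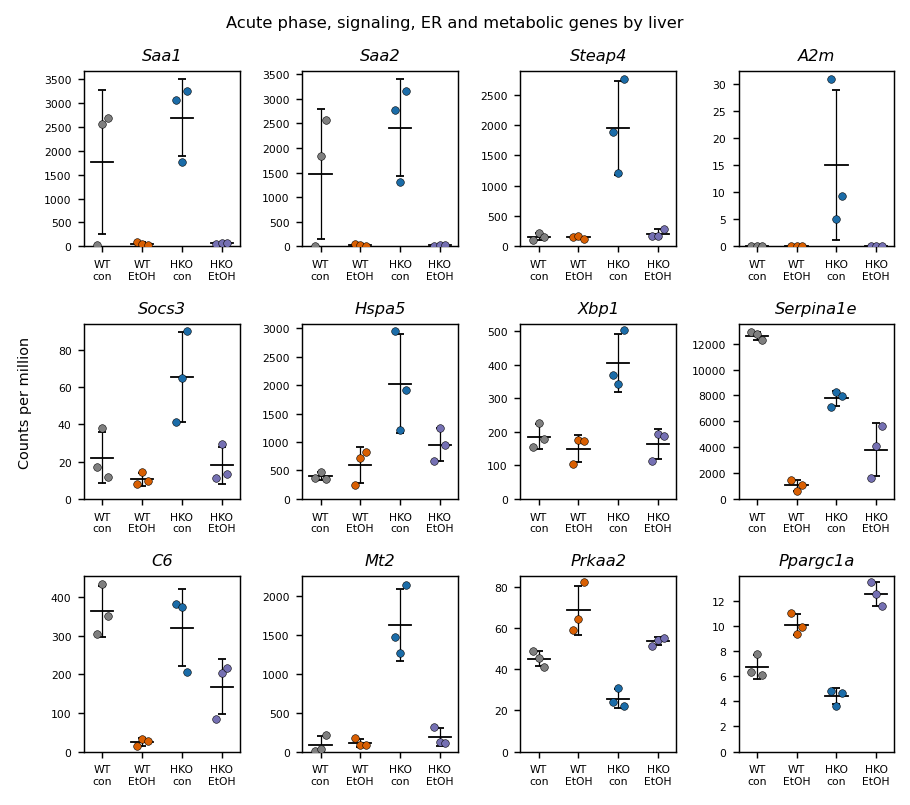
CPM of acute phase, signaling, endoplasmic reticulum, male-biased and metabolic genes in each liver (points) of the 4 groups, with the group mean (line) and SD (bar, drawn to 0 at most), n = 3. *Steap4*, *Mt2* and *Xbp1* are high in the 3 control-diet *Ahr* HKO livers alone, *C6* and *Serpina1e* are lowest in WT on ethanol, and *Saa1* and *Saa2* split the WT control-diet livers.

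The largest increases in *Ahr* HKO were, besides *A2m*, mostly genes with no read in any WT ethanol liver. These were *Cfd*, *Tm4sf20*, *Tmc5*, *Hist1h2br*, *Fmn2* and *E030018B13Rik*. The increase of the group mean was at least 247-fold, 84.1-fold, 74.5-fold, 54.7-fold, 50.9-fold and 34.7-fold, respectively. Such a bound need not hold for each liver, and *Tmc5* in *Ahr* HKO liver 3 (0.0403 CPM) was below the floor of 0.0605 CPM in that library. *Cfd*, the complement factor made by adipocytes, varied widely in *Ahr* HKO, at 34.7, 0.512 and 2.26 CPM. It was no DEG without *Ahr* HKO liver 3 (adjusted *P* value = 0.0570) or without WT ethanol liver 1 (0.0892), liver 2 (0.0816) or liver 3 (0.0892). *Tmc5*, with 9.11, 2.18 and 0.0403 CPM, kept its call without *Ahr* HKO liver 3 and lost it without any other single liver. *Scara5*, a ferritin receptor, had 125, 115 and 58.5 CPM in *Ahr* HKO and 0.283, 0.223 and 1.03 CPM in WT on ethanol (log2 FC = 7.57, SE 0.63, adjusted *P* value = 0.00108), with WT control-diet livers between at 13.1, 18.03 and 51.6 CPM.

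*Ctse*, cathepsin E, gave a different order of groups. Control-diet *Ahr* HKO livers had 17.9, 12.5 and 21.98 CPM and *Ahr* HKO ethanol livers 38.8, 34.5 and 26.7 CPM, whereas WT livers had 0.3398, 0.0954 and 0.0637 CPM on ethanol and 0.0873, 0 and 0.123 CPM on control diet (log2 FC = 6.75, SE 0.54, adjusted *P* value = 0.000961). Both *Ahr* HKO groups were above both WT groups. *Adgrf1*, an adhesion receptor, went with diet in WT livers, at 5.68, 4.73 and 6.86 CPM in *Ahr* HKO on control diet, 17.4, 8.104 and 6.42 CPM in WT on control diet and 0, 0.159 and 0 CPM in WT on ethanol (log2 FC = 6.65, SE 0.84, adjusted *P* value = 0.00316).

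Genes of the PP2A, AMPK and autophagy axis held DEGs at shares near that of all tested genes (19.0%). Of 22 PP2A and AMPK genes 3 (13.6%) were lower in *Ahr* HKO and none higher, and of 42 autophagy genes 3 were higher and 4 lower (16.7%), with list medians of 0.03 and 0.07. Without *Ahr* HKO liver 2 the autophagy genes that were higher numbered 5. *Prkaa2*, an AMPK catalytic subunit, had 24.04, 30.8 and 21.9 CPM in *Ahr* HKO on control diet, 59.1, 64.3 and 81.95 CPM in WT on ethanol and 48.6, 45.3 and 41.1 CPM in WT on control diet (log2 FC = -1.42, SE 0.18, adjusted *P* value = 0.00303). WT on the control diet lay between the groups without overlap. The PP2A regulatory subunit *Ppp2r5a* had 67.8, 80.2 and 74.2 CPM against 197, 154 and 163 CPM, with 148, 149.8 and 137 CPM in WT on control diet (log2 FC = -1.21, SE 0.14, adjusted *P* value = 0.00237). *Ppp2r2d*, another regulatory subunit, did not separate the groups, with 24.2, 25.8 and 31.7 CPM in *Ahr* HKO and 29.7, 28.5 and 26.5 CPM in WT on ethanol (log2 FC = -0.05, SE 0.13, adjusted *P* value = 0.798). Both groups lay above WT on the control diet (20.8, 20.4 and 18.9 CPM). Against those livers the log2 FC was 0.44 in *Ahr* HKO on control diet (adjusted *P* value = 0.0287) and 0.49 in WT on ethanol (0.0214). Both values were under the FC limit and share their WT control livers.

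The other PP2A and AMPK genes that the study had named were not DEGs either. Their log2 FC values were -0.19 for *Ppp2r5c*, -0.33 for *Ppp2r5d*, 0.02 for *Prkaa1* and -0.11 for *Stk11*, with adjusted *P* values of 0.201, 0.107, 0.922 and 0.500. *Ulk1*, the kinase that starts autophagy, had 188, 228 and 246 CPM in *Ahr* HKO and 149.5, 83.8 and 151 CPM in WT on ethanol. Its groups did not overlap and its adjusted *P* value of 0.0512 missed the threshold (log2 FC = 0.78, SE 0.24), whereas DESeq2 called it (adjusted *P* value = 0.00968). *Map1lc3b* (LC3B) passed on its adjusted *P* value of 0.0472 but stayed under the FC limit (log2 FC = 0.56, SE 0.17), which it passed without *Ahr* HKO liver 2 (0.70, adjusted *P* value = 0.0250). *Sqstm1* (p62) had 522, 531 and 549 CPM and 885, 559 and 532 CPM, where WT ethanol liver 1 stood above the rest (log2 FC = -0.30, adjusted *P* value = 0.337). *Tfeb*, the master regulator of lysosomal genes, had a log2 FC of -0.38 (adjusted *P* value = 0.109).

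Within the autophagy list, *Atg2a*, a lipid transfer protein of the growing autophagosome, was higher in *Ahr* HKO, with 89.5, 104 and 107 CPM against 47.3, 34.6 and 36.7 CPM (log2 FC = 1.35, SE 0.15, adjusted *P* value = 0.00228). *Uvrag*, a partner of the Beclin complex, was lower, with 16.8, 18.2 and 15.7 CPM against 27.7, 30.5 and 30.7 CPM (log2 FC = -0.81, SE 0.10, adjusted *P* value = 0.00326). WT on the control diet was near *Ahr* HKO for *Atg2a* (86.9, 64.5 and 74.8 CPM) and near WT on ethanol for *Uvrag* (28.9, 30.5 and 28.4 CPM). *Uvrag* in *Ahr* HKO on ethanol stood at 26.8, 30.8 and 28.05 CPM. Lysosomal genes were lower for 7 of 33 and higher for none (21.2% DEGs against 19.0% of all tested genes, median -0.43). The 7 fell to 4 without *Ahr* HKO liver 2, *Ahr* HKO liver 3 or WT ethanol liver 1 and became 14 with limma on log2(FPKM + 1) or log2(FPKM + 0.1). *Cd63*, a lysosomal tetraspanin, had 6.83, 4.57 and 5.08 CPM in *Ahr* HKO, 2.97, 5.03 and 5.52 CPM in WT on control diet, 3.37, 6.67 and 3.83 CPM in *Ahr* HKO on ethanol and 27.8, 22.1 and 24.6 CPM in WT on ethanol. The WT ethanol livers stood alone (log2 FC = -2.17, SE 0.18, adjusted *P* value = 0.00108). *Glb1*, beta-galactosidase, had 6.11, 3.69 and 5.42 CPM against 22.1, 18.5 and 17.9 CPM (log2 FC = -1.94, SE 0.21, adjusted *P* value = 0.00208).

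Tryptophan catabolism, which supplies kynurenine as an AhR ligand, gave 1 higher and 1 lower DEG among 12 tested genes (16.7%, against 19.0% of all). The higher call remained only without *Ahr* HKO liver 3 when 1 liver was left out, and the lower call was lost without WT ethanol liver 3. *Tdo2*, the first enzyme of the pathway in liver, had 726, 401 and 1361 CPM in *Ahr* HKO and 782, 818 and 747 CPM in WT on ethanol. *Ahr* HKO livers ranged on both sides of the WT livers, and no difference was detectable (log2 FC = 0.08, SE 0.39, adjusted *P* value = 0.899). *Ido2* was not called either (log2 FC = -0.23, adjusted *P* value = 0.397). *Ido1* had no read in any of the 6 libraries and was not tested.

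Glucose metabolism leaned lower in *Ahr* HKO, with 13 of 26 genes lower and 2 higher (57.7% DEGs against 19.0% of all tested genes, median -0.72). *Ppargc1a*, a coactivator of gluconeogenic and mitochondrial genes, had 4.87, 3.67 and 4.68 CPM in *Ahr* HKO and 11.01, 9.396 and 9.92 CPM in WT on ethanol (log2 FC = -1.198, SE 0.16, adjusted *P* value = 0.00402). *Pygl*, liver glycogen phosphorylase, had 236, 359 and 348 CPM and 679, 680 and 713 CPM (log2 FC = -1.14, SE 0.19, adjusted *P* value = 0.00687). *Pck2*, the mitochondrial PEP carboxykinase, had 2.37, 2.42 and 2.22 CPM and 7.87, 7.42 and 6.72 CPM (log2 FC = -1.65, SE 0.15, adjusted *P* value = 0.00134). WT on the control diet stood between the groups for *Ppargc1a* (6.31, 7.801 and 6.07 CPM) and *Pck2* (4.28, 3.94 and 4.93 CPM).

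DEGs made up 28.6% of lipogenic genes and 36.4% of lipid droplet genes, against 19.0% of all tested genes. Lipogenic genes were lower for 6 of 21 with none higher (median -0.59), with 3 lower without *Ahr* HKO liver 2 or with limma on quantile-normalized log2(FPKM + 1), and 10 with DESeq2. *Me1*, malic enzyme, had 74.9, 70.5 and 67.3 CPM in *Ahr* HKO, 173, 239 and 266 CPM in WT on ethanol and 73.9, 97.4 and 64.7 CPM in WT on control diet (log2 FC = -1.67, SE 0.18, adjusted *P* value = 0.00198). *Dgat2*, which makes triglyceride, had 294, 323 and 309.5, 734, 584 and 594 and 593, 529.9 and 614 CPM in the same order (log2 FC = -1.04, SE 0.14, adjusted *P* value = 0.00410). WT on the control diet was thus with *Ahr* HKO for *Me1* and with WT on ethanol for *Dgat2*. *Ahr* HKO livers on ethanol had 179, 111 and 92.3 CPM of *Me1* and 737, 552 and 549 CPM of *Dgat2*. Lipid droplet genes gave 4 higher and 4 lower of 22, and the 4 higher became 2 without *Ahr* HKO liver 1 or liver 3. Fat-storage genes *Fabp4* (48.6, 50.4 and 35.5 CPM against 9.04, 11.3 and 7.78 CPM, log2 FC = 2.25, adjusted *P* value = 0.00110) and *Cidec* (11.9, 30.1 and 32.95 CPM against 4.29, 3.10 and 2.12 CPM, log2 FC = 2.98, adjusted *P* value = 0.00474) were higher in *Ahr* HKO, while *Pparg*, the receptor that drives them in fat cells, was lower (5.78, 4.81 and 5.79 CPM against 16.5, 14.4 and 16.8 CPM, log2 FC = -1.54, adjusted *P* value = 0.00129).

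Cholesterol synthesis was higher for 5 of 24 genes and lower for 1 (25.0% DEGs against 19.0% of all tested genes, median 0.47). The higher genes numbered 3 without *Ahr* HKO liver 1, *Ahr* HKO liver 2 or WT ethanol liver 3, and 9 with DESeq2. *Sqle*, squalene epoxidase, had 113, 102 and 70.8 CPM in *Ahr* HKO and 36.1, 11.3 and 20.6 CPM in WT on ethanol (log2 FC = 2.07, SE 0.40, adjusted *P* value = 0.0118). WT control-diet livers had 52.2, 104 and 78.2 CPM, overlapping *Ahr* HKO. Cholesterol efflux transporter *Abca1* was also higher, at 325, 343 and 494 CPM against 136, 111 and 124 CPM (log2 FC = 1.65, SE 0.19, adjusted *P* value = 0.00251).

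Alcohol and aldehyde oxidation genes were lower in *Ahr* HKO for 5 of 16 and higher for none (31.25% DEGs against 19.0% of all tested genes, median -0.45). The count was 2 without *Ahr* HKO liver 2 and 3 without any other *Ahr* HKO liver or WT ethanol liver 1 or liver 2. *Aldh1b1*, a mitochondrial aldehyde dehydrogenase, had 28.4, 23.6 and 31.5 CPM in *Ahr* HKO and 146, 97.2 and 73.5 CPM in WT on ethanol (log2 FC = -1.92, SE 0.26, adjusted *P* value = 0.00370). *Adh1*, the main alcohol dehydrogenase, had 1003, 728 and 1486 CPM and 2538, 2778 and 2457 CPM (log2 FC = -1.27, adjusted *P* value = 0.0152) and missed the threshold without *Ahr* HKO liver 1 (log2 FC -1.23, adjusted *P* value = 0.0532). Iron genes gave 3 higher and 5 lower of 19 (42.1% DEGs). *Ftl1*, ferritin light chain, had 2236, 1928 and 2022 CPM in *Ahr* HKO, 6155, 5159 and 4415 CPM in WT on ethanol and 2395, 2136 and 2133 CPM in WT on control diet (log2 FC = -1.35, SE 0.19, adjusted *P* value = 0.00467). For this gene the WT ethanol livers were apart from both control-diet groups.

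Large housekeeping lists stayed close to the median of all genes. None of 75 respiratory chain subunits (median -0.15) and none of 76 cytosolic ribosomal proteins (median -0.11) was a DEG by edgeR in either direction. Over all tested genes 19.0% were DEGs. Of the 75 and 76 genes, 11 and 4, respectively, had an unadjusted *P* value under 0.05, as did 5502 of all 14038 tested genes. DESeq2 called none of either list. Limma called 2 respiratory chain subunits lower on log2(FPKM + 1) and 6 on log2(FPKM + 0.1). The spread of the lists is shown in the plot of members by list.

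**Figure D5:**
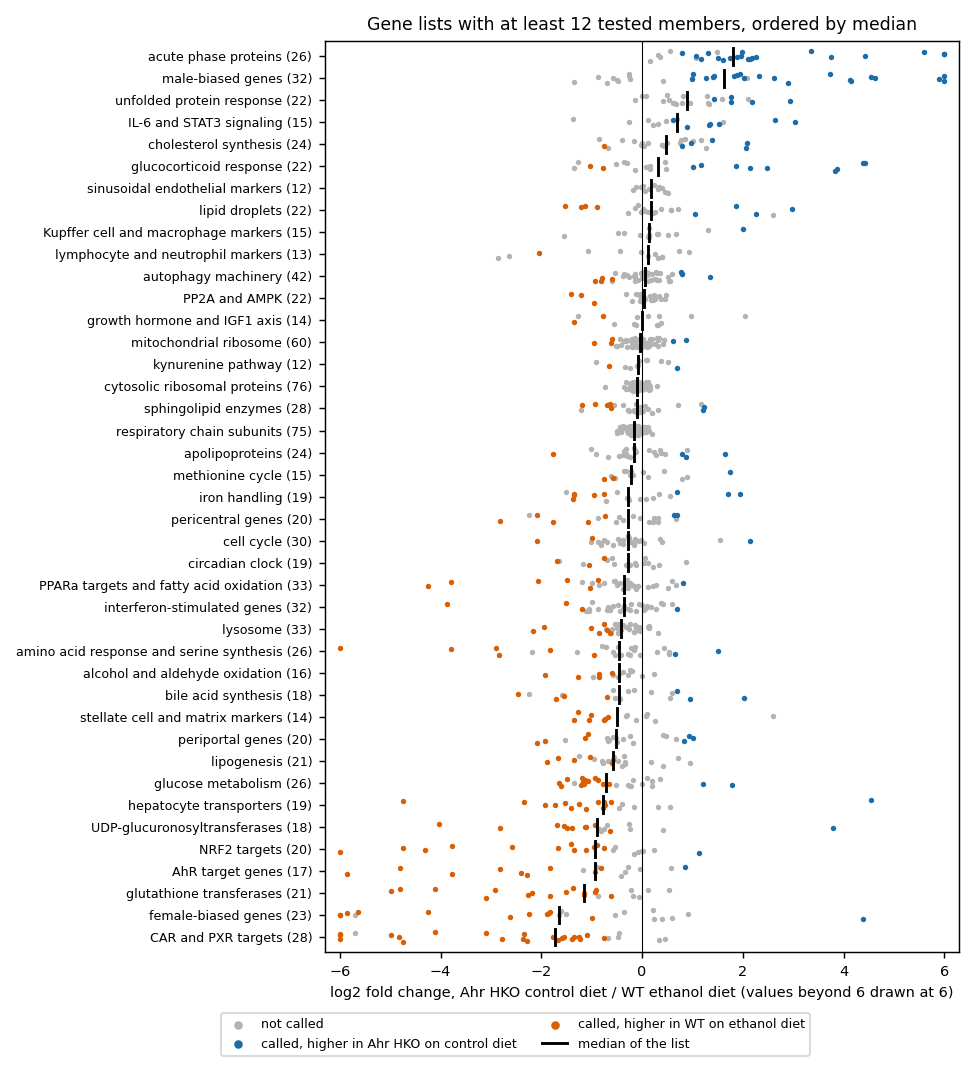
log2 FC (*Ahr* HKO on control diet over WT on ethanol) of the tested members (points) of each gene list with at least 12 of them, with the list median (bar) and the number tested in brackets. Acute phase proteins and male-biased genes lie at the top (medians 1.81 and 1.62), and female-biased genes and CAR and PXR targets at the bottom (medians -1.66 and -1.72).

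Markers of liver cell types were examined beside these results, and their counts are read against DEGs at 19.0% of all tested genes. Among 9 tested hepatocyte markers 4 were higher in *Ahr* HKO, and their summed level was 94184 to 141458 CPM against 89500 to 119962 CPM in WT on ethanol. The 4 include *Fgb*, which is also an acute phase protein, and fell to 2 without *Ahr* HKO liver 2 or liver 3 or WT ethanol liver 1 or liver 2. *Ass1*, a urea cycle enzyme usually abundant in hepatocytes, was listed at means of only 1.58 CPM and 2.49 CPM. Kupffer cell and macrophage markers gave 1 higher of 15 (*Itgam*), with sums of 460 to 1249 CPM against 467 to 1130 CPM. The *Itgam* call was lost without *Ahr* HKO liver 1 (log2 FC 1.79, adjusted *P* value = 0.0758), *Ahr* HKO liver 2 (1.84, 0.0771), WT ethanol liver 1 (1.89, 0.0824) or WT ethanol liver 3 (1.71, 0.0688).

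Stellate cell and matrix markers were lower for 7 of 14 (median -0.49), with sums of 269 to 301 CPM in *Ahr* HKO and 389 to 445 CPM in WT on ethanol, which did not overlap. The count of 7 fell to 4 without *Ahr* HKO liver 2, *Ahr* HKO liver 3, WT ethanol liver 2 or WT ethanol liver 3. *Col1a2*, a chain of type I collagen, had 10.1, 9.503 and 6.37 CPM against 20.5, 23.3 and 19.02 CPM (log2 FC = -1.27, SE 0.19, adjusted *P* value = 0.00531). Of 12 sinusoidal endothelial markers none was called by edgeR or DESeq2. None had an unadjusted *P* value under 0.05 by edgeR (0 of 12, against 5502 of 14038 tested genes), and their sums were 498 to 525 CPM against 308 to 684 CPM. Without WT ethanol liver 2, however, 6 of the 12 were higher in *Ahr* HKO. The list median of 0.18 became 0.69 without that liver, -0.02 without WT ethanol liver 1 and -0.01 without WT ethanol liver 3. Lymphocyte and neutrophil markers had 1 lower of 13, with sums of 20.0 to 35.99 CPM against 15.6 to 25.8 CPM. Cholangiocyte markers had 2 higher of 6 (*Epcam* and *Sox9*), and their sum ran from 54.3 to 489 CPM in *Ahr* HKO against 61.6 to 69.0 CPM in WT on ethanol. Neither was called without *Ahr* HKO liver 2 or without any 1 WT ethanol liver, and *Epcam* (log2 FC 1.44, adjusted *P* value = 0.0870) was lost without *Ahr* HKO liver 1 and *Sox9* (0.95, 0.0729) without *Ahr* HKO liver 3. The part of these cell types in the acute phase, lipid and other differences was not tested.

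WT livers on the control diet, which entered no test of the comparison, placed the DEGs. Of the 1287 DEGs higher in *Ahr* HKO, 660 (51.3%) had a WT control mean within 1.5-fold of WT on ethanol and further from *Ahr* HKO, and 166 (12.9%) had it within 1.5-fold of *Ahr* HKO alone. Of the 1383 higher in WT on ethanol, 638 (46.1%) were near WT on ethanol alone and 256 (18.5%) near *Ahr* HKO alone. Among genes not called, 14.5% were near WT on ethanol alone and 7.15% near *Ahr* HKO alone, and 68.1% were near both. *Steap4*, *Abcg5*, *Abcg8*, *Ppp2r5a* and *Uvrag* belong to the former kind of DEG, and *Nqo1*, *Htatip2*, *Gstm3*, *Cyp4a12a* and *Cd63* to the latter. When 2-fold counted as near, the share of all DEGs near WT on ethanol alone was 28.1% in place of 48.6%.

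Each group also had its own comparison at the same threshold. *Ahr* HKO against WT, both on the control diet, gave 19.8% DEGs. Ethanol against control diet in WT gave 6.58%, and *Ahr* HKO against WT, both on ethanol, gave 1.03%. These share livers with the comparison described here, and only values of single genes are set side by side. *Steap4* had a log2 FC of 3.603 (adjusted *P* value = 0.00167) for *Ahr* HKO against WT, both on control diet. It had -0.15 (0.791) for ethanol in WT and 0.50 (0.295) for *Ahr* HKO against WT, both on ethanol. *Cyp4a12b* had -0.40 (0.381), -6.296 (0.000222) and 6.05 (0.00236) in that order, and *Cyp2a5* had -1.55 (0.0422), 3.28 (0.00213) and -0.99 (0.0436). *Ctse* had 7.98 (0.000614), 1.24 (0.524) and 7.69 (0.00236). Hence *Steap4* passed in the control-diet contrast of genotypes, *Cyp4a12b* in the ethanol contrast of WT and the ethanol-diet contrast of genotypes, *Cyp2a5* in all 3, and *Ctse* in both genotype contrasts.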

How the data were processed

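Liver RNA of 12 mice was sequenced as poly(A) libraries in pairs of reads. Per the labels and the authors' methods, reads were checked and trimmed with FastQC 0.11.7 and Trimmomatic 0.38, aligned to mm10 with HISAT2 2.1.0 and Bowtie2 2.3.4.1, and assembled and counted per gene with StringTie 1.3.4d. The authors deposited a read count, an FPKM value and a TPM value per gene and library. Counts were used for all tests, the deposited FPKM values for alternatives, and the TPM values were not used. Reads on genes numbered 46306518 to 74336255 per library.

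The 3 *Ahr* HKO control-diet livers were compared with the 3 WT ethanol-diet livers by edgeR 4.0.16 (R 4.3.3; filterByExpr with its minimum of 10 counts, TMM factors, glmQLFit and glmQLFTest) with Benjamini-Hochberg adjustment over 14038 genes. The study's own scale, quantile-normalized log2(FPKM + 1), was an alternative. log2 FC is *Ahr* HKO on the control diet minus WT on ethanol. SE is an approximate standard error, the absolute log2 FC divided by the square root of the F statistic of glmQLFTest. Values in text are CPM of single livers, in the order of replicates 1 to 3. The step was tested on simulated data. The named genes were the 10 largest increases and decreases among DEGs without overlap and with a mean count of at least 50, genes named by the study, and up to 4 DEGs of lowest *P* value from each of 45 lists. The genes and lists were chosen with earlier results of these data known. Where a group had at most 3 reads in each library, FC is a bound of the other group's mean against 3 reads per library. That floor covers counting error only. DESeq2 1.42.0 and limma 3.58.1 served as alternatives. The 3 livers of a group came from separate mice, per the study's methods. Promoter windows came from RefSeq on GRCm38.p6, which shares coordinates with mm10. Protein sequences were not used here, and some genes that the rule names are not reported here.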

Additional observations from a re-analysis of the deposited data

How the results depend on the processing

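All alternatives kept the number of DEGs within 1.5 times the 2670 of the edgeR test. DESeq2 called 3215, upper-quartile scaling 2632, no count filter 2555, a minimum of 10 counts in each library 2613, all 12 libraries in 1 fit 3147 and limma on quantile-normalized log2(FPKM + 1) 1812. Between 63.2% and 99.4% of the 2670 DEGs were called by each alternative. Fewer DEGs were higher in *Ahr* HKO with limma on quantile-normalized log2(FPKM + 1) (829), on log2(FPKM + 1) (580) and on log2(FPKM + 0.1) (815, where the median of all genes was -0.14). Leaving out 1 of the 6 livers gave 2024 to 2225 DEGs, 987 to 1092 higher in *Ahr* HKO and 1006 to 1157 higher in WT on ethanol. The share of DEGs whose WT control mean was near WT on ethanol alone was 48.6%, and became 52.4% and 46.1% of the DEGs of limma on quantile-normalized log2(FPKM + 1) and on log2(FPKM + 0.1), 28.1% with 2-fold as near, and 47.6% to 53.9% without 1 liver. The last range includes each WT control-diet liver, an alternative chosen after seeing the data. PC1 took 65.8% of the variance in quantile-normalized log2(FPKM + 1) and 56.6% to 60.3% without 1 liver. With the replicate number as a replicate block the count was 2046. The pairing rests on a shared number only, since deviations of same-numbered livers correlated at -0.04, -0.03 and 0.09. With the block 12 male-biased genes were higher in *Ahr* HKO in place of 20, 2 genes of the unfolded protein response in place of 5, 2 hepatocyte markers in place of 4, 0 cholangiocyte markers in place of 2, 3 alcohol oxidation genes were lower in place of 5, and 3 PPARα targets in place of 6.

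Of 157 named DEGs 109 passed under every alternative that tested them, 15 for most and 14 for those that a minimum of 10 counts in each library left out, and 36 lost the call without 1 liver or another, and none changed direction. Among the genes not called, the direction turned for *Prkaa1* (-0.0307 with upper-quartile scaling, -0.0202, -0.0874 and -0.12 with limma on quantile-normalized log2(FPKM + 1), log2(FPKM + 1) and log2(FPKM + 0.1), and -0.0540 to 0.105 without 1 liver), *Tdo2* (-0.0912 with the replicate block, -0.0581, -0.24 and -0.24 with the same limma fits, and -0.474 to 0.415 without 1 liver) and *Ppp2r2d* (-0.175 to 0.0270 without 1 liver). The cause of these changes was not tested.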

Other observations

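Several gene groups not described above held single DEGs, at list shares that are read against 19.0% of all tested genes. Sphingolipid enzymes gave 2 higher and 5 lower of 28 (25.0%), and 3 lower without WT ethanol liver 1. *Sptlc2*, a subunit of the first enzyme of sphingolipid synthesis, had 61.99, 45.4 and 53.4 CPM in *Ahr* HKO, 25.1, 23.6 and 20.5 CPM in WT on ethanol and 18.2, 18.8 and 17.5 CPM in WT on control diet (log2 FC = 1.22, SE 0.14, adjusted *P* value = 0.00257). Every control-diet *Ahr* HKO liver was above every other liver shown. *Sgms2*, a sphingomyelin synthase, was lower, with 20.1, 24.2 and 12.3 CPM against 46.7, 43.9 and 38.6 CPM (log2 FC = -1.19, SE 0.23, adjusted *P* value = 0.0123). In the amino acid response list, 6 of 26 were lower and 2 higher (30.8%), and the lower count became 3 without *Ahr* HKO liver 2 or liver 3. *Atf3*, a stress-induced factor, had 1.42, 0.9896 and 1.57 CPM against 18.3, 5.07 and 5.05 CPM (log2 FC = -2.83, SE 0.56, adjusted *P* value = 0.0124), and *Psph*, the last enzyme of serine synthesis, 10.7, 9.18 and 16.1 CPM against 4.08, 4.197 and 4.41 CPM (log2 FC = 1.504, SE 0.23, adjusted *P* value = 0.00521).

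PPARα targets and fatty acid oxidation genes were lower for 6 of 33 and higher for 1 (21.2%, median -0.36), with 3 lower without *Ahr* HKO liver 2. *Acot3*, an acyl-CoA thioesterase, had 0.964, 0.478 and 3.55 CPM in *Ahr* HKO and 29.3, 53.0 and 11.4 CPM in WT on ethanol (log2 FC = -4.25, SE 0.84, adjusted *P* value = 0.0122). Of 14 genes of the growth hormone and IGF1 axis 2 were lower (14.3%, below the share of all genes). The count was 1 without *Ahr* HKO liver 1, *Ahr* HKO liver 2 or WT ethanol liver 1 and 3 without *Ahr* HKO liver 3, and the list median of 0.01 ranged from -0.30 to 0.17 without 1 liver. *Igfals*, the carrier subunit of circulating IGF1, had 25.9, 38.01 and 56.2 CPM in *Ahr* HKO, 108, 89.01 and 107 CPM in WT on ethanol and 87.7, 109.9 and 117 CPM in WT on control diet (log2 FC = -1.34, SE 0.27, adjusted *P* value = 0.0125). Both WT groups lay above *Ahr* HKO on the control diet, as did *Ahr* HKO on ethanol (129, 112 and 94.5 CPM).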
